A study of Mus musculus with 12 samples.

Results

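H3K4me1 peaks were compared between a mouse melanoma line that is wild type (WT) for Kmt2d, line 971, and a melanoma line with a Kmt2d mutation, line 493. The members are all peaks of the broad-peak list of each H3K4me1 library on chromosomes 1 to 19 and X, each called against the input DNA of its own line. There were 21022 such peaks, 17373 in the WT list and 3649 in the mutant list, of 134015 peaks in the lists of all 8 ChIP libraries of the series. The series holds H3K4me1, H3K4me3, H3K27ac and H3K27me3 in each of the 2 lines, with 1 library per line and mark. Every value below is therefore a description of 2 libraries and carries no test. The labels give neither the kind of Kmt2d mutation nor how it arose, and nothing on the tumours of origin or any further allele. Both were grown in the same medium. Line and genotype cannot be told apart, since each genotype is 1 line.

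H3K4me1 is histone H3 with a single methyl group on lysine 4. KMT2D and its close relative KMT2C are the methyltransferases that place much of it at enhancers, working in complexes with WDR5, RBBP5, ASH2L, DPY30, PAXIP1 and PAGR1. At active promoters the start site itself carries H3K4me3, and H3K4me1 typically lies on the flanks of that H3K4me3. H3K27ac marks enhancers and promoters that are active, so H3K4me1 without it is found at enhancers that are poised or weak.

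The mutant list differed from the WT list in where its peaks lay as well as in their number. Away from H3K4me3 of the same line there were 13.7 mutant peaks per 100 WT peaks, and on it 45.7. Even so, 50.2% of the mutant list lay away from H3K4me3. About 1.5 kb past gene starts that carry H3K4me3 in both lines, the mutant list covered more starts than the WT list. The sequences before 6 gene starts show the kinds of promoter involved. Each is the 250 bases upstream of a start, 5′ to 3′ on the strand of the gene, from RefSeq on GRCm38.p6, with CG dinucleotides in capitals. Zfpl1 and Ess2 had the mutant peaks with the largest −log10 p between 1 and 2 kb downstream of a start that had no WT H3K4me1 there. Arid1a is the same for starts with H3K4me1 there in both lines, and Wdr1 for starts with WT H3K4me1 alone. The Arid1a peak ran from 0.591 to 1.00 kb and that of Wdr1 from 1.93 to 2.56 kb. Each thus only just met this stretch. Tnk2 and Gsn are the other case, promoters that lay whole under a WT H3K4me1 peak with no mutant peak.
Zfpl1 (chr19:6084976-6085225, minus strand): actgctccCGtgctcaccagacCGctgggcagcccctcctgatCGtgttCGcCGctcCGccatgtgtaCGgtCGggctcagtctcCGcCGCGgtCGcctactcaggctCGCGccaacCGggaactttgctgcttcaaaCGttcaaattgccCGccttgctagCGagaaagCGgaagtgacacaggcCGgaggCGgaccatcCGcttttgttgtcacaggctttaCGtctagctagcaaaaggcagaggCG
Ess2 (chr16:17911349-17911598, minus strand): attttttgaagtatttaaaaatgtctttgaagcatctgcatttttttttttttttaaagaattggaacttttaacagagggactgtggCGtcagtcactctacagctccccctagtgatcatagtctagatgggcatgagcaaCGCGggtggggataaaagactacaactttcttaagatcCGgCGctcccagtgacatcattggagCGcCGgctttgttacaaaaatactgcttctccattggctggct
Arid1a (chr4:133756770-133757019, minus strand): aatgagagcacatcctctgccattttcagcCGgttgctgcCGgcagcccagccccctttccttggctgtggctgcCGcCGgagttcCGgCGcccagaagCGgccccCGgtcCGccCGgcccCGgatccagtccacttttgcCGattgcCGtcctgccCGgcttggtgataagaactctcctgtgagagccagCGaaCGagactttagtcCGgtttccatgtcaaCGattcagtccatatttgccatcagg
Wdr1 (chr5:38561700-38561949, minus strand): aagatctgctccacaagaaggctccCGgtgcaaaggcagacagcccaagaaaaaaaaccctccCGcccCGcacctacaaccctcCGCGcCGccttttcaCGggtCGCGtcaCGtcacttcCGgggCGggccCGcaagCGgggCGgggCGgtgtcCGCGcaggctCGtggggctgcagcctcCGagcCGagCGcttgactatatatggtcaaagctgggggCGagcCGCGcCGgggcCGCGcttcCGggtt
Tnk2 (chr16:32672904-32673153, plus strand): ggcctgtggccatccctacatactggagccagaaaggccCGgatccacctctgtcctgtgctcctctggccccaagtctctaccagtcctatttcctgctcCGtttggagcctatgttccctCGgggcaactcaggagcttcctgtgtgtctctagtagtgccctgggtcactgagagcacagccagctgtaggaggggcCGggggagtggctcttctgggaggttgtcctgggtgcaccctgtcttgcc
Gsn (chr2:35266494-35266743, plus strand): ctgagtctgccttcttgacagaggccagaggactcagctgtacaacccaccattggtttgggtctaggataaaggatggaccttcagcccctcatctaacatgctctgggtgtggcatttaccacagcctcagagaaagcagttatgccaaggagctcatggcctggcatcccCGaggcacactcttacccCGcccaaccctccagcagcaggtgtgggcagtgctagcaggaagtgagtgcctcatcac
The upstream sequence of Zfpl1 holds 24 CG dinucleotides, that of Arid1a 18 and that of Wdr1 29. Ess2 has 7, Tnk2 has 4 and Gsn has 2. The first 3 are CG-rich, whereas Tnk2 and Gsn are CG-poor.

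A peak with 1 bp or more in common with a peak of the other line was called shared. By this rule 93.4% of WT peaks (16222) and 68.3% of mutant peaks (2491) lay in 1 line alone. The 1151 shared WT peaks were wider, with a median of 605 bp (95% interval of the median 572 to 644), than the WT peaks found alone, with 416 bp (411 to 421). In the mutant list the shared peaks had a median of 414 bp (402 to 429) and the peaks found alone 329 bp (322 to 338). Shared peaks were thus the wider ones in both lists, and the WT median was the larger among shared peaks and among peaks found alone. Intervals here and below are at 95% and cover counting error only, not the difference between cultures.

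**Figure D1:**
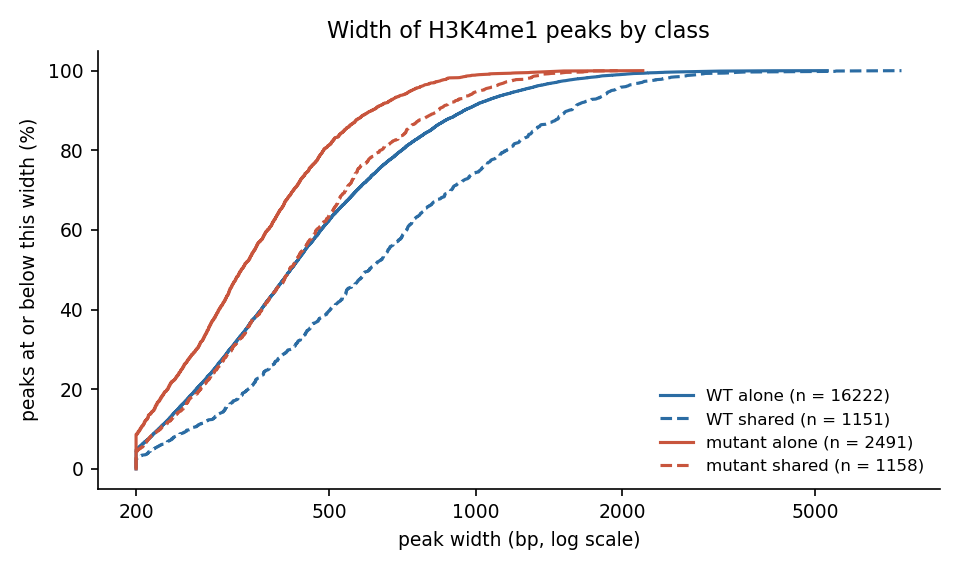
Cumulative share of H3K4me1 peaks (%) by peak width (bp, log scale) for the 4 peak classes. Mutant peaks found alone lie furthest to the left (median 329 bp) and shared WT peaks furthest to the right (median 605 bp).

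Peaks over 2 kb wide numbered 203 in the WT list and 2 in the mutant list. The widest WT peak, 7.52 kb within Myh9 (chr15:77800908-77808425), which encodes the heavy chain of non-muscle myosin, overlapped a mutant peak of 0.200 kb. The next widest, 5.51 kb within Wdr1, an actin disassembly factor (chr5:38548293-38553807), held 2 mutant peaks that together measured 2.27 kb. A WT peak of 5.48 kb within Bahcc1 (chr11:120249675-120255157) overlapped 2 mutant peaks that summed to 2.42 kb. So the widest WT domains were called in the mutant line as short pieces. The widest WT peaks with no mutant peak lay within Actn4 (5.29 kb), within Ip6k3 (4.39 kb) and within Zcchc24 (4.34 kb). Among mutant peaks found alone the widest were 2.21 kb within Scd2, a fatty acid desaturase gene, 2.01 kb within Zcchc14 and 1.52 kb within Hsp90b1, a chaperone of the endoplasmic reticulum. These 3 lay between 2.43 and 3.62 kb from a gene end, and all 3 overlapped H3K4me3 in both lines.

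Bases covered in both lines came to 0.370 Mb, which is 3.92% of the WT length and 24.6% of the mutant length. Of the shared WT peaks, 1120 met 1 mutant peak and 31 met 2 or more. The share of WT peaks with a mutant peak went up with its width, from 3.65% (3.08% to 4.33%) in the narrowest 20% of peaks to 13.0% (11.9% to 14.1%) in the widest. By the authors' −log10 p it went from 4.58% in the weakest 20% to 9.87% in the strongest. A wider peak also has more bases that can meet a peak of the other list. Even in the widest 20% most WT peaks had no mutant peak.

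The authors' fold enrichment over input had a similar median in both lists, 4.61 (range 3.12 to 7.06) in the WT and 4.55 (2.94 to 7.27) in the mutant line. The smallest −log10 p was 5.01 and 5.03. The smallest −log10 q was 2.44 in the WT and 1.78 in the mutant list. Read depth is unknown for both libraries, so how far depth moves the peak number was not tested.

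H3K4me3 at the same place separated the classes most. Of WT peaks found alone, 20.7% overlapped H3K4me3 of their own line, against 60.7% (58.8% to 62.6%) of mutant peaks found alone. Most of the latter, 58.3%, lay on H3K4me3 that was called in both lines, and 2.37% on H3K4me3 called in the mutant line alone. The H3K4me3 at these places was therefore mostly called in the WT line too. Shared peaks differed by line, with 54.6% of WT and 26.3% of mutant shared peaks on H3K4me3 of their own line, and 27.6% of mutant shared peaks lay on H3K4me3 called in the WT line alone. H3K4me3 covered 46.7 Mb in the WT and 40.0 Mb in the mutant line.

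H3K27ac ran differently. It overlapped 11.9% of WT peaks found alone, 25.6% of shared WT peaks, 14.3% of shared mutant peaks and 9.15% of mutant peaks found alone, each within its own line. Mutant peaks found alone thus had the highest share with H3K4me3 and the lowest with H3K27ac. Median H3K27ac peak widths were 107 to 130 bp, with or without H3K4me1 and in either line, against 1333 to 3149 bp for H3K4me3. Such narrow peaks leave less room for an overlap, so the shares of the 2 marks are not on 1 scale. H3K27me3, the Polycomb mark, overlapped at most 1.24% of any class. The mutant H3K27me3 list is named as called against the WT H3K27me3 library rather than input, so it bears little on this.

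**Figure D2:**
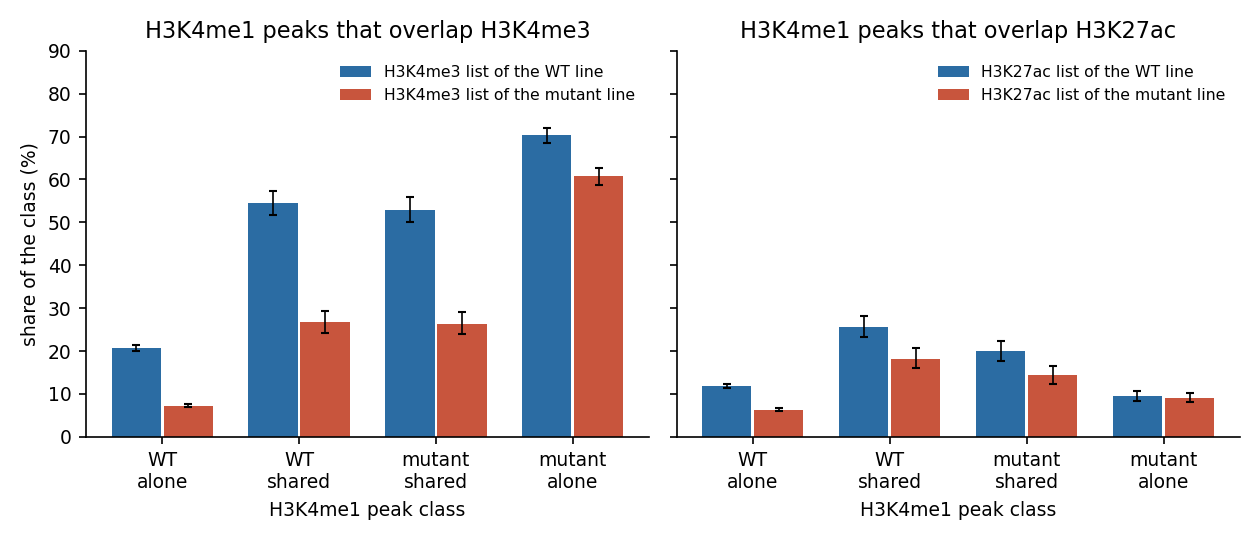
Share of each H3K4me1 peak class (%) that overlaps H3K4me3 (left) and H3K27ac (right) of the WT line (blue) and the mutant line (red), with 95% Wilson intervals. Own-line H3K4me3 overlap is 20.7% for WT peaks found alone and 60.7% for mutant peaks found alone.

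Split by own-line H3K4me3, the size of the difference between the lines changed. With H3K4me3, 1817 mutant and 3978 WT peaks gave 45.7 mutant peaks (43.2 to 48.3) per 100 WT peaks. Without it, 1832 and 13395 gave 13.7 (13.0 to 14.4). These intervals cover counting error only, not the difference between cultures, so the gap is a description and carries no test. The same split by own-line H3K27ac gave 17.7 (15.9 to 19.7) with the mark and 21.5 (20.7 to 22.3) without it, a far smaller gap. How far the narrow H3K27ac peaks bear on this gap was not tested. Peaks on H3K4me3 made up 22.9% of the WT list and 49.8% of the mutant list.

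A WT peak with both H3K4me3 and H3K27ac had a mutant peak in 26.4% (149 of 564), and one with H3K4me3 only in 14.0% (479 of 3414). With H3K27ac only the share was 8.81% (146 of 1657). With neither mark, the state of most WT H3K4me1 peaks (11738), it was 3.21% (377). The order for mutant peaks was not the same. Those without H3K4me3 had a WT peak in 46.4% (neither mark) and 47.3% (H3K27ac only), against 16.2% for those with H3K4me3 only. So the mutant H3K4me1 off H3K4me3 was often at WT sites, and that on H3K4me3 mostly was not.

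Mutant H3K4me1 peaks that met H3K4me3 lay within an H3K4me3 peak more often than across its edge. Fully inside an H3K4me3 peak of their own line lay 49.7% (47.8% to 51.7%) of mutant peaks found alone, and 11.0% crossed an edge. Of WT peaks found alone 9.67% lay inside and 10.1% crossed an edge. Seen from the H3K4me3 peaks, 9.20% of those in the mutant line held H3K4me1, and these were wide, with a median of 3149 bp against 1873 bp for those without. In the WT line 15.7% held H3K4me1, and these were narrower (1333 bp) than those without (1656 bp). By median over all H3K4me3 peaks, those with H3K4me1 were thus wider in the mutant line and narrower in the WT line. At gene starts with H3K4me3 in both lines, described below, the WT order was the reverse. Starts with WT H3K4me1 downstream had a median WT H3K4me3 width of 3.11 kb (WT H3K4me1 alone) or 3.81 kb (H3K4me1 in both lines). Over all such starts the median was 2.82 kb. A wider H3K4me3 peak also has more bases that can meet H3K4me1.

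By position in gene models, 18.4% of mutant peaks found alone lay within 1 kb of a gene end, against 9.85% (9.40% to 10.3%) of WT peaks found alone, 11.0% of shared WT and 10.4% of shared mutant peaks. Between genes lay 13.7% of mutant peaks found alone and 25.6% of WT peaks found alone. In all 4 classes most peaks lay inside a gene, between 64.5% and 69.9%. Of mutant peaks between genes 40.1% were shared, and of those at gene ends 20.9%.

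To place the peaks along the gene, H3K4me1 was measured around 9413 gene starts that carried H3K4me3 in both lines, 1 start per gene with the strand taken into account. At the start itself H3K4me1 was nearly absent, with 0.0531% of starts covered in the WT and 0.0425% in the mutant line. Downstream the mutant profile rose to a narrow maximum of 2.77% (2.46% to 3.12%; 261 starts) at 1.5 kb and was down to 0.308% at 5 kb. The WT profile had 1.24% (1.04% to 1.49%; 117 starts) at 1.5 kb, then stayed level, at 1.64% at 5 kb and 1.19% at 10 kb. On the upstream side the mutant maximum was 0.967%, at 1.3 kb, and the WT maximum 1.22%, at 1 kb. So the mutant line exceeded the WT line in the first kilobases of the transcribed side, and the WT line exceeded the mutant line farther into the gene.

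The WT list holds more peaks and yet covered fewer starts at 1.5 kb. Its strongest peaks, taken to the number of the mutant list, covered 0.0637% of starts at 1.5 kb and 0.404% at 5 kb. At the 7349 starts without H3K4me3 in either line, mutant H3K4me1 never covered more than 0.150% within 10 kb, and WT H3K4me1 never more than 0.463%. Without chromosomes 10 and 19, described below for their many mutant peaks, the mutant value at 1.5 kb was 2.39%, against 1.28% in the WT line. Starts on chromosome 18 were not used here.

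**Figure D3:**
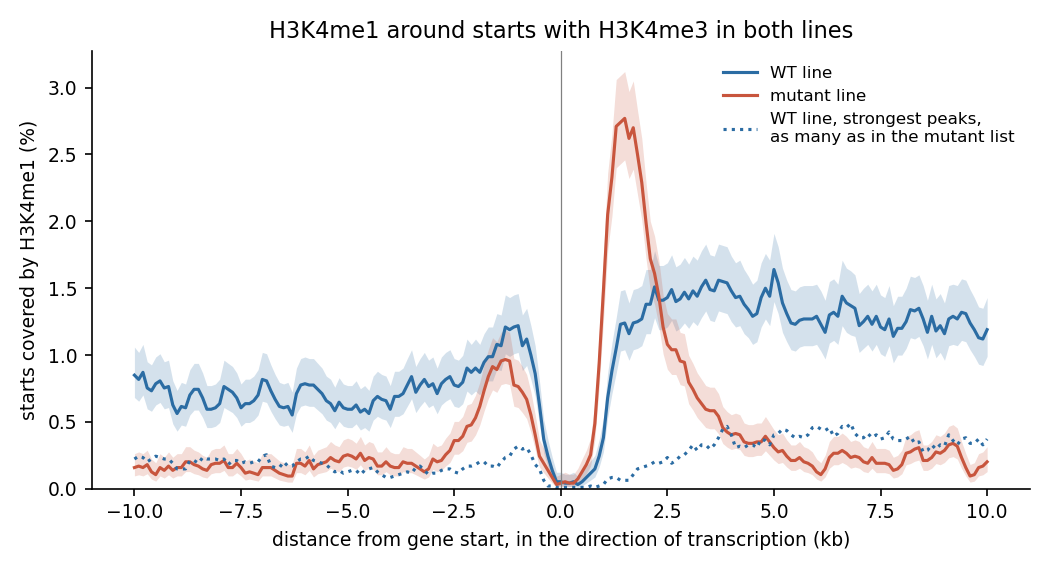
Share of 9413 gene starts with H3K4me3 in both lines (%) whose position at each distance (kb, transcription to the right) is covered by H3K4me1, with shaded 95% Wilson intervals. The mutant line peaks at 2.77% at 1.5 kb downstream, where the WT line has 1.24% and its strongest peaks, as many as in the mutant list (dotted), 0.0637%.

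Genes with this downstream H3K4me1 were counted by any covered base from 1 to 2 kb after the start. It was present in the mutant line at 694 of the 9413 starts (7.37%) and in the WT line at 334 (3.55%). In the mutant line alone there were 612 (6.50%, 6.02% to 7.02%), in the WT line alone 252 (2.68%) and in both 82 (0.871%). The H3K4me3 peak at the 612 starts was wide in both lines, with medians of 3.25 kb (WT) and 3.21 kb (mutant), beside 2.82 kb and 2.71 kb over all 9413. It reached 2.14 kb and 2.08 kb past the start, beside 1.78 kb and 1.71 kb over all. Wide H3K4me3 was not particular to these starts, with 3.11 kb (WT) and 2.79 kb (mutant) at starts with WT H3K4me1 alone and 3.81 kb and 3.44 kb at those with both. The H3K4me1 at 1.5 kb thus lay short of the downstream end of the median H3K4me3 peak. Of the 612 starts, 118 (19.3%) were on chromosome 10 or 19, against 8.98% of all, and of the 252 starts with WT H3K4me1 alone 3.97% were there.

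The downstream peak of Zfpl1, a zinc finger protein of the Golgi, measured 0.706 kb, began 0.763 kb after the start and had a fold enrichment of 5.59. That of Ess2 measured 0.717 kb, began 0.732 kb after the start and had 6.18-fold enrichment. The H3K4me3 peak at Zfpl1 was 3.30 kb (WT) and 3.46 kb (mutant) wide, and that at Ess2 1.71 kb and 1.87 kb. At both genes H3K4me3 was therefore of similar width in both lines while H3K4me1 was called in the mutant line alone. Ipmk, an inositol polyphosphate kinase, Ccp110, a centriole protein, and Sac3d1, Eml3, Myg1 and Tceanc2 follow by −log10 p, from 9.33 down to 8.75. At Arid1a, a subunit of the BAF chromatin remodelling complex, the mutant peak was 0.414 kb long with 6.64-fold enrichment and began 0.591 kb after the start. It ended at 1.00 kb and so only just met the stretch that was counted. Smarcd1, another BAF subunit, was also among the starts with H3K4me1 in both lines. The WT peak downstream of Wdr1 began 1.93 kb after the start and was 0.633 kb long, and H3K4me3 there was 6.74 kb (WT) and 5.52 kb (mutant) wide.

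In base composition these starts did not stand apart. The 300 bases around the start (250 before, 50 after) held a median of 24.0 CG dinucleotides at starts with mutant H3K4me1 alone, 23.0 with WT H3K4me1 alone, 22.0 with both and 22.0 over all 9413. The printed sequences of Zfpl1 and Ess2, with 24 and 7 in 250 bases, show the spread. Promoters that were themselves covered by H3K4me1 were rare and different. Of 21044 promoter windows of 300 bases, 103 were touched by WT H3K4me1 alone, with a median of 5 CG dinucleotides, 22 by mutant H3K4me1 alone, with 7, and 4 by both, beside 13.0 over all windows. Tnk2, a non-receptor tyrosine kinase gene, lay under a WT peak of 1.29 kb, and Gsn, which encodes the actin-severing protein gelsolin, under one of 3.40 kb. Both promoters had H3K4me3 in the WT line and none in the mutant line.

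Among the gene lists, as over all starts, few starts had the downstream H3K4me1. Over all lists, counting a gene once per list, 9 of 193 starts with H3K4me3 in both lines had it in the mutant line alone, 10 in the WT line alone and 3 in both. The background over all 9413 starts is 6.50% in the mutant line alone, 2.68% in the WT line alone and 0.871% in both. The members named here are a description and no result about the lists. Oxidative phosphorylation and the TCA cycle had it at Mdh2 and Cox5a in the mutant line alone and at Sdhb and Atp5b in both lines, of 14 members with H3K4me3 in both. Sdhd, of the same list, had it in the WT line alone. Of the H3K4 methylation machinery, 12 members qualified. Wdr5 had it in the mutant line alone, Paxip1 in the WT line alone and Rbbp5 in both lines. Wdr5 and Rbbp5 are genes of core subunits that all KMT2 complexes hold in common. The pigment gene Mlph, the small Maf gene Mafg, the glycolytic Pfkl, Cdk2, Tbp and Tfrc had it in the mutant line alone. Tgfbi, Tead3, Ephb2, the glycolytic Tpi1, Gusb, Rab7 and S100b had it in the WT line alone.

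By chromosome, 2 stood apart. Chromosome 10 had 36.8 mutant peaks (32.3 to 41.9) per 100 WT peaks and chromosome 19 had 44.6 (38.7 to 51.5), while the other 17 autosomes ranged from 16.1 to 23.2 with a median of 19.1. Together chromosomes 10 and 19 held 15.8% of mutant and 8.27% of WT peaks. Along chromosome 10 the ratio was 11.4 to 28.3 in the 20 Mb steps below 80 Mb and 46.6 to 60.4 from 80 Mb on. On chromosome 19 the first 20 Mb had 55.9 and the steps from 20 to 60 Mb 37.4 and 36.4, and the last step held 7 peaks of each line. H3K27ac moved with it, at 92.8 mutant peaks per 100 WT peaks on chromosome 10 and 116 on chromosome 19, against 61.3 to 77.8 on all other chromosomes. H3K4me3 had 79.4 and 84.4, against 71.4 to 81.3 on the other autosomes. The number of copies of these chromosomes in either line was not tested.

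On X the lists held few H3K4me1 peaks, 19 in the WT and 8 in the mutant line, 0.109% and 0.219% of the lists. No X peak was shared. The other marks had far more there, with 627 WT and 569 mutant H3K4me3 peaks and 313 and 231 H3K27ac peaks. The near lack of H3K4me1 on X was common to both lines.

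**Figure D4:**
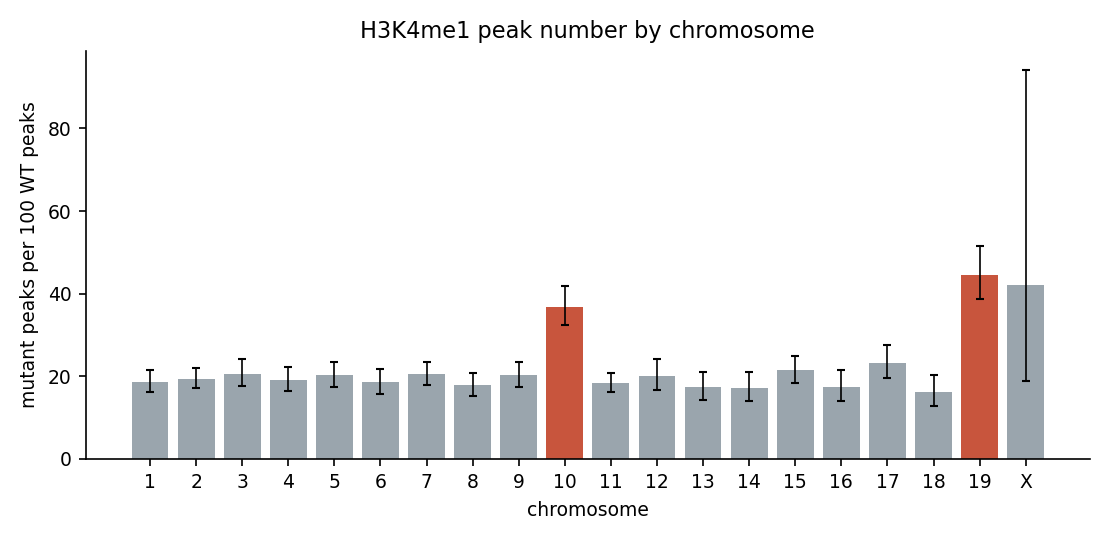
Mutant H3K4me1 peaks per 100 WT peaks on each chromosome, with 95% intervals for counting error. Chromosomes 10 (36.8) and 19 (44.6), in red, lie above the other autosomes (16.1 to 23.2), and X rests on 19 WT and 8 mutant peaks.

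Around genes, all bases under H3K4me1 within 50 kb of either end of the gene model were added up for each line. Parts of a long gene farther than 50 kb from both ends were left out. Of 21627 protein-coding genes 11075 had a peak of either line there. A gene was called lower or higher in the mutant line when the covered bases differed at least 2-fold and by at least 500 bases. By this rule 6093 genes (55.0%) were lower and 617 (5.57%) were higher, and the median difference, mutant minus WT, was −0.664 kb. Both counts depend on the list lengths. When the WT list was held to its strongest 3649 peaks, 1884 genes were lower and 1887 higher, so the calls describe the whole lists and not a balance at equal number. Of the 617 higher genes, 165 (26.7%) were on chromosomes 10 and 19, which hold 8.73% of the genes with a peak.

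**Figure D5:**
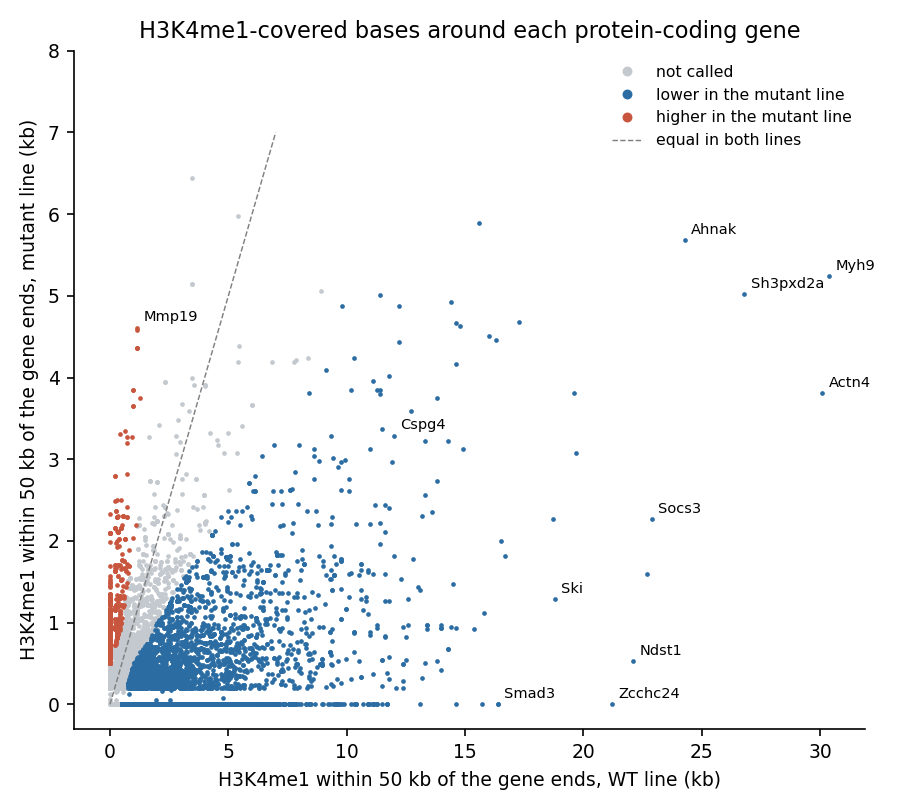
H3K4me1-covered bases (kb) within 50 kb of the ends of each protein-coding gene in the WT (x) and mutant line (y), 1 point per gene, coloured by the call. The scales differ, and the dashed line marks equal coverage. Actn4 (30.1 against 3.81 kb) and Myh9 (30.4 and 5.24 kb) lie far to the right, and Mmp19 (1.15 and 4.61 kb) leads the genes higher in the mutant line.

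In what follows a pair of lengths gives the WT line first and the mutant line second. Windows of neighbouring genes overlap and can count the same peaks. The genes with the largest WT excess had up to 30.4 kb in the WT line. Actn4, which encodes the actin crosslinker alpha-actinin, had 30.1 kb in 25 WT peaks and 3.81 kb in 9 mutant peaks. Myh9 had 30.4 kb against 5.24 kb. Sh3pxd2a, an invadopodium scaffold gene, had 26.8 kb against 5.02 kb, and Ahnak 24.3 kb against 5.68 kb. Socs3, an inhibitor of cytokine signalling, had 22.9 kb against 2.27 kb, and Septin9 19.7 kb against 3.08 kb. Ndst1, a heparan sulfate sulfotransferase gene, kept a single mutant peak of 0.531 kb beside 22.1 kb in 23 WT peaks. The mutant line had no peak in the windows of Zcchc24 (21.2 kb in the WT line), Zmiz1 (16.4 kb) and Smad3 (16.4 kb in 24 peaks).

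Genes with more H3K4me1 in the mutant line had far smaller amounts. Mmp19, a matrix metalloproteinase gene, had 1.15 kb against 4.61 kb. Taf6l had 0.969 kb against 3.85 kb, Scd4 1.26 kb against 3.75 kb, and Ttc41 0.418 kb against 3.31 kb. These 4, and Lrrn4cl, Sema4g, Myo1a, Tm7sf2 and Cs after them, are on chromosome 10 or 19. The other 3 of the 12 were Col11a2, a minor fibrillar collagen gene (0 and 2.33 kb), the pro-apoptotic Bax (0 and 2.10 kb) and Chmp2a, an ESCRT subunit gene (0.200 and 2.16 kb).

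Coverage in both lines at the same bases was highest at Mms19 (3.17 kb of 14.4 kb against 4.93 kb), Adssl1 (2.84 kb) and Cspg4 (2.60 kb). Cspg4 encodes a proteoglycan found on melanoma cells. Wdr1, Tns3 and Mical2 came next, with 2.56, 2.55 and 2.48 kb. Even these genes were called lower, and Cspg4 had 12 kb against 3.29 kb. Kmt2d itself had 1.07 kb in 2 WT peaks and no mutant peak, which does not check the mutation.

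The 20 gene lists were described by the same calls. More members were lower than higher in 19 of them, and in 9 when the WT list was held to the mutant number. The counts of each list at that equal number are given with it. With all peaks, the background to read each list against is 55.0% lower and 5.57% higher over all genes. At equal number it is 1884 genes lower and 1887 higher. The number of genes with a peak at that setting is not given here. The counts at equal number, for all genes and for each list, are therefore not shares and give the direction only. TGF-beta pathway genes had 13 of 16 members with a peak lower and 0 higher, with a median difference of −3.36 kb beside −0.664 kb over all genes. Ski, a repressor of SMAD proteins, had 18.8 kb against 1.29 kb. Smad3, the effector of the receptor, had 16.4 kb against 0 kb, and Ltbp2, a matrix protein of the latent TGF-beta binding protein family, 11.7 kb against 0 kb. The ligand genes Tgfb1 (3.07 kb against 0 kb), Tgfb2 (0.971 kb against 0 kb) and Tgfb3 (2.14 kb against 0.320 kb) and the receptor gene Tgfbr1 (1.60 kb against 0 kb) were lower too. Summed over the list, 89.6 kb in the WT line stood against 3.38 kb. At equal number 9 members were lower and 1 higher.

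Genes of the undifferentiated or neural crest state, in which melanoma cells are invasive, had 13 of 16 lower and 0 higher (median −3.06 kb), and 6 and 1 at equal number. Tgfbi, a matrix protein gene that is also in the TGF-beta list, had 8.66 kb against 0 kb. Cd44, a hyaluronan receptor gene, had 8.26 kb against 0.691 kb, and Snai1, a repressor of epithelial genes, 7.02 kb against 0 kb. The receptor kinase gene Axl had 4.57 kb against 0.512 kb.

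AP-1 genes had 9 of 11 lower and 0 higher (median −1.56 kb), and 6 and 3 at equal number. Jun had 8.30 kb against 0.879 kb, Maff 5.41 kb against 0.253 kb, and Fosl1, on chromosome 19, 6.14 kb against 2.61 kb. Mafg had about equal amounts, 1.82 kb against 1.89 kb. Hippo pathway genes had 9 of 15 lower and 0 higher (median −1.70 kb), a share near that of all genes, and at equal number the direction turned, with 1 lower and 4 higher. Vgll4, a TEAD cofactor, had 9.28 kb against 0.646 kb, and Amotl2, which binds YAP, 7.98 kb against 0 kb. Yap1 itself was not called, with 0.866 kb against 0.469 kb.

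MAPK feedback genes and targets had 9 of 14 lower and 0 higher (median −0.990 kb), 64.3% beside 55.0% over all genes, and 5 and 2 at equal number. The ERK phosphatase gene Dusp7 had 7.41 kb against 0 kb, Dusp5 5.73 kb against 0 kb, and Ccnd1, cyclin D1, 6.98 kb against 1.40 kb. Dusp6 was not called, with 0.488 kb against 0.983 kb. Receptor tyrosine kinases had 11 of 16 lower and 1 higher (median −1.37 kb), and 2 and 1 at equal number. Epha2 had 8.30 kb against 0.736 kb, Mertk 5.52 kb against 0.757 kb, and Met 4.30 kb against 0 kb. Erbb3, on chromosome 10, had 0 kb against 0.510 kb.

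Collagen and matrix genes had 16 of 21 lower and 1 higher (median −1.33 kb), and 7 and 2 at equal number. Sparc had 11.1 kb against 1.59 kb and Col1a1 7.87 kb against 0.489 kb, while Col6a3 was higher, with 0.970 kb against 2.03 kb. IGF and insulin signalling had 11 of 21 lower and 0 higher (median −0.734 kb), near the share of all genes, and 4 and 2 at equal number. Akt1 had 7.46 kb against 1.07 kb and Irs2, an adaptor of the insulin receptor, 5.30 kb against 0 kb. Glycolysis genes had 11 of 20 lower and 0 higher (median −0.988 kb), also near that share, and at equal number the direction turned, with 3 lower and 6 higher. Hk1, hexokinase, had 3.36 kb against 0.200 kb. Pfkp had 2.70 kb against 0 kb and the glucose transporter gene Slc2a1 2.15 kb against 0 kb. Housekeeping genes had 11 of 18 lower and 1 higher (median −0.855 kb), near the share of all genes, and 4 and 4 at equal number.

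In several lists a smaller share of members than of all genes was lower. Oxidative phosphorylation and the TCA cycle had 4 of 19 lower and 3 higher (median −0.161 kb), with Uqcrc1 at 0.975 kb against 0 kb, and Ndufs1 at 0 kb against 0.801 kb. The H3K4 methylation enzymes had 5 of 13 lower and 0 higher (median −0.307 kb). Pagr1a, a subunit of the KMT2D complex, had 2.66 kb against 0.476 kb, Kmt2a 2.01 kb against 0 kb, and the demethylase gene Kdm1a 1.13 kb against 0 kb. Cell cycle genes had 5 of 14 lower and 3 higher (median −0.427 kb), and the CDK4 and CDK6 inhibitor gene Cdkn2b had 0 kb against 1.22 kb. Developmental regulators had 4 of 10 lower and 0 higher (median −0.398 kb). At equal number the direction turned in the first 3 of these, with 1 lower and 6 higher, 0 and 1, and 1 and 3, and developmental regulators had 1 and 0. These 4 lists had little WT coverage to begin with, at medians of 0.399 to 0.551 kb against 0.884 kb over all genes with a peak. A gene with under 0.5 kb in the WT line cannot be called lower by this rule.

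The labelled cell type was set against its markers. Of 21 melanocyte genes, 11 had H3K4me1 in a window of either line, 8 lower and 1 higher in the mutant line (72.7% and 9.09%, median −1.22 kb). At equal number the direction turned, with 1 lower and 2 higher. The cation channel gene Trpm1 had 4.60 kb against 0 kb, the melanocortin receptor gene Mc1r 2.88 kb against 0.386 kb, and Mlph 3.87 kb against 1.86 kb. The lineage regulators Sox10 (1.44 kb) and Mitf (1.22 kb) had H3K4me1 in the WT line alone, and Pmel, on chromosome 10, in the mutant line alone (0.591 kb). At the pigment enzyme genes Tyr, Tyrp1 and Dct neither line had a peak. Summed over the list, 18.4 kb in the WT line stood against 3.83 kb in the mutant line, beside 9.44 Mb against 1.51 Mb over all peaks. H3K4me1 at these genes was thus sparse in the mutant line, as it was over all peaks. The peaks do not settle the identity of either line.

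Markers of other cell types were as follows. Fibroblast markers had 4 of 6 members with a peak lower (12.3 kb against 1.57 kb summed), with Dpt at 0.944 kb against 0 kb. Immune markers had 4 of 6 lower (8.09 kb against 0.762 kb), led by Spi1 (3.19 kb against 0.214 kb), and endothelial markers 2 of 3 (4.08 kb against 0.212 kb), led by Cldn5 (2.56 kb against 0 kb). Schwann cell markers had 2 of 5 lower and 1 higher (6.39 kb against 2.49 kb), with S100b at 2.87 kb against 0.494 kb. Keratinocyte markers had 0 of 3 called (1.11 kb against 0 kb). At equal number fibroblast markers had 1 lower and 1 higher, immune markers 2 and 0, endothelial markers 0 and 0 and Schwann cell markers 1 and 2. All 5 summed lengths were smaller in the mutant line, as was the length covered by all peaks, which was 6.27-fold greater in the WT line. Whether other cell types were present was not tested.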

How the data were processed

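ChIP-seq for H3K4me1 was compared between 1 WT and 1 mutant library, with the lists of the other marks used as annotation. The submitters' processing notes name MACS2, FastQC, MultiQC and the build mm10, without versions. Aligner, read filters and depth: not given in the sources used here. The deposited broad-peak lists give for each peak a fold enrichment, which is a ratio to input, with −log10 values of p and q, used only within a list. The deposited score columns were not used.

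With Python 3.11.15, numpy 2.4.6, pandas 2.3.3 and scipy 1.17.1, peaks on chromosomes 1 to 19 and X were kept (1 mutant peak on another contig was left out) and compared by overlap of at least 1 bp. The overlap and coverage functions were tested on simulated intervals. Shares have 95% Wilson intervals. Gene ends came from a RefSeq table of GRCm38.p6, the assembly of mm10, and peak position used 34324 protein-coding and lncRNA genes. Starts with strand came from the RefSeq promoter table (17273 genes, the most upstream start of each). All 365 members of the 20 gene lists matched by symbol. Named genes are those with the largest excess of covered bases in each line (12 each) or the most bases in both (6), the 3 members of each list with the largest difference, Kmt2d, and the 3 widest and 3 strongest peaks of each class. Some genes chosen by these criteria are not reported here. Other members of lists, and genes with H3K4me1 downstream of the start, were named after their values were seen, and the analysis of starts was added then. Members and lists were chosen with earlier results of these data known. The alternatives were a stricter p, equal list lengths, other overlap, distance and window settings, merged peaks, no chromosomes 10 and 19, and only peaks off H3K4me3.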

Additional observations from a re-analysis of the deposited data

How the results depend on the processing

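Of 102 recomputed values of the main results, 50 stayed within the counting interval (for counts of genes and lists and for the length ratio, within 1.5-fold), 49 moved and 3 changed direction. The cause of these moves was not tested beyond what each setting leaves out.

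With the WT list held to the length of the mutant list, mutant peaks per 100 WT peaks were 100 in all, 172 on chromosomes 10 and 19 and 92.7 elsewhere, and covered length was 1.65-fold greater in the WT line. Shared were 9.78% of WT and 10.2% of mutant peaks. Own H3K4me3 overlapped 24.0% of WT and 53.7% of mutant peaks found alone, own H3K27ac 14.9% of WT peaks found alone, and 16.5% of mutant peaks found alone lay at a gene end. Median widths of peaks found alone were 468 bp in the WT and 346 bp in the mutant line. WT H3K4me1 covered 0.0637% of starts at 1.5 kb and 0.404% at 5 kb. Genes lower and higher numbered 1884 and 1887, and 9 lists had more members lower than higher. The ratio on chromosomes 10 and 19 passed 100 and is counted as turned. This setting fixes the ratio in all at 100, and chromosomes 10 and 19 stayed above the rest. Genes lower and higher came to nearly equal numbers, 1884 and 1887, which is also counted as turned. On small counts, lower and higher members turned in the melanocyte list (1 and 2), Hippo (1 and 4) and H3K4 enzymes (0 and 1). They turned too in glycolysis (3 and 6), oxidative phosphorylation (1 and 6), cell cycle (1 and 3) and Schwann markers (1 and 2).

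At −log10 p of at least 6 there were 18.5 mutant peaks per 100 (16.8 off chromosomes 10 and 19). Shared were 4.87% of WT and 26.6% of mutant peaks. Of WT peaks found alone, 22.3% had own H3K4me3 and 13.7% own H3K27ac, and their median width was 464 bp. Of mutant peaks found alone, 11.0% had own H3K27ac. Starts covered at 1.5 kb were 0.637% in the WT and 1.71% in the mutant line, and at 5 kb 1.10% and 0.212%.

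Among peaks off own H3K4me3, a setting chosen after seeing the data, mutant peaks per 100 were 13.7 in all, 21.9 on chromosomes 10 and 19 and 13.0 elsewhere, 3.78% of WT and 27.7% of mutant peaks were shared, and 82 genes were higher. Merging peaks within 1 kb gave 24.1 per 100 in all, 45.3 on chromosomes 10 and 19 and 22.2 elsewhere. Counting peaks within 1 kb as shared gave 11.6% of WT and 47.2% of mutant peaks shared, own H3K4me3 at 19.6% of WT and 68.3% of mutant peaks found alone, and 20.6% of the latter at a gene end. Requiring 50% of the shorter peak gave 5.26% and 25.6% shared and own H3K4me3 at 58.4% of mutant peaks found alone. A gene end within 2.5 kb held 20.2% of WT and 50.2% of mutant peaks found alone. A window of 20 kb gave 3534 genes lower and turned oxidative phosphorylation (1 lower, 3 higher). Without chromosomes 10 and 19 there were 19.3 mutant peaks per 100, 6.20% of WT peaks were shared and mutant H3K4me1 covered 2.39% of starts at 1.5 kb.

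Of 282 recomputed counts of list members, 197 stayed within 1.5-fold with the same direction, 69 moved and 16 belonged to lists whose direction turned. No paired analysis was possible because there was 1 library per line. Base composition and motifs under the peaks were not run, since no genome of the build was used here. Depth is unknown for both libraries, and its effect on which peaks were called was not tested.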
